A study of Mus musculus with 12 samples.

Results

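Transcripts of the chemokine receptor CXCR3 and of its ligands CXCL9, CXCL10 and CXCL11 were sought in dendritic cells (DCs) grown from mouse bone marrow. The genes are *Cxcl9*, *Cxcl10*, *Cxcl11* and *Cxcr3*, and all probes of these 4 genes that could be named were taken, each through its accession in the array files. Of the 4 genes, 3 had a named probe, out of 24232 named genes on the array. *Cxcl9*, *Cxcl10* and *Cxcr3* had 1 probe each, and no probe was matched to *Cxcl11*, which RefSeq's table of the mouse reference assembly GRCm38.p6 lists as a transcribed pseudogene. On the array 21200 probes have no name in that table, and whether any of them measures *Cxcl11* was not settled. The genes were selected on their log2 differences between these groups on these same arrays, so their values are given as a description, with no test.

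RNA was measured on 12 single-colour Agilent arrays, 3 in each of 4 groups. Young DCs came from untreated female mice of 2 months, Young-Abx DCs from female mice of 2 months given an antibiotic cocktail, Old DCs from untreated female mice of 24 months, and Old-LP DCs from female mice of 24 months given LP, the bacterium *Lactobacillus plantarum*. All cultures were grown for 7 days with GM-CSF at 2 ng/ml and IL-4 at 4 ng/ml and then received LPS, the bacterial ligand of TLR4 used to mature DCs, at 1 μg/ml for 24 h, so no array shows unstimulated cells. The study's methods describe pools of mice, and the loosely adherent cells of such cultures are not DCs only.

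CXCR3 is a receptor of activated T cells, NK cells and plasmacytoid DCs. Its ligands are secreted by DCs, macrophages and stromal cells and draw these lymphocytes towards the cell that makes them. *Cxcl9* depends mainly on interferon-γ, whereas *Cxcl10* also answers to type I interferon and to NF-κB, both of which lie downstream of the LPS receptor TLR4.

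The ligand genes lie close together on chromosome 5, and *Cxcr3* lies on the X chromosome. In the order of RefSeq's table *Art3* comes between *Cxcl9* and *Cxcl10*, and it overlaps *Cxcl10* and *Cxcl11*. The stretches before the starts of both measured ligand genes are shown because these ligands share a receptor yet differed across the groups. Each is the 250 bases before the gene's start in RefSeq's GRCm38.p6 annotation, read 5′ to 3′ on the minus strand, at chr5:92328080-92328329 for *Cxcl9* and chr5:92348890-92349139 for *Cxcl10*. Capitals mark matches, on either strand, to the core of the interferon-stimulated response element GAAANNGAAA, the NF-κB motif and the TATA box TATAAA.
Cxcl9: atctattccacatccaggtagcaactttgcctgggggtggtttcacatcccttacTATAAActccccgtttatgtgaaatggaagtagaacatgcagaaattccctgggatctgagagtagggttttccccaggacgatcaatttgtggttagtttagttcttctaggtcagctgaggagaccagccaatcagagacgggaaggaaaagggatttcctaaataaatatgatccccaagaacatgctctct
Cxcl10: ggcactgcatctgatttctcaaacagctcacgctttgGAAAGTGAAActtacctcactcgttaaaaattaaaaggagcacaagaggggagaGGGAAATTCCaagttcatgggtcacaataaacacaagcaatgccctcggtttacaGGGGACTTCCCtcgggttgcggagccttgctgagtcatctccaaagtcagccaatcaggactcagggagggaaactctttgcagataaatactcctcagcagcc
The *Cxcl10* stretch held 1 match to GAAANNGAAA, from 213 to 204 bases before the start. It held 3 matches to the NF-κB motif, of which 2 overlap, between 159 and 94 bases before the start. The *Cxcl9* stretch held 1 match, to TATAAA, from 195 to 190 bases before the start. GAAANNGAAA was found in 2.98% of all 32851 stretches of this length in the table. The table holds 22 of the interferon-induced genes listed below, and 12 of these had a match in any of their stretches. These counts are by gene and the shares are by stretch, so they are not alike. The NF-κB motif was found in 7.25% of all stretches and in 4 of the 22 genes, and TATAAA in 12.4% and in 5. A match describes the letters only and does not show a working element at that place. No other motif was searched, so a stretch without a match may still hold other interferon elements.

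Before the members are described, the arrays themselves differ by replicate letter. The A and B arrays of all groups shared 1 slide, and the C arrays lay on 2 others, 1 with Young and Young-Abx and 1 with Old and Old-LP. Letter C differences of Old or Old-LP against Young are therefore also differences between slides, and these cannot be told apart. The share of spots well above background ranged from 61.2% to 66.4% for A and B and from 37.3% to 46.0% for C. Within a group, the A and B arrays differed by a median of 0.14 to 0.18 log2 units per probe and the A and C arrays by 0.70 to 0.98. The largest of these gaps was that of Old. The study describes its array data as independent sets from pooled mice, but the labels do not tie the letters to those sets, so the standard errors measure the spread between these arrays, which may be technical. Each member is therefore given on all arrays and within each letter.

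*Cxcl9* was the member with the widest range. Its normalized log2 signal (log2 of the background-subtracted spot intensity after quantile normalization over the 12 arrays) was 7.85, 7.64 and 9.34 on the Young A, B and C arrays. It was 5.05, 4.93 and 7.53 in Young-Abx DCs. It was 2.79, 2.56 and 3.12 in Old DCs and 7.43, 7.47 and 9.15 in Old-LP DCs. The Old arrays lay below all others and did not overlap with any group, Young-Abx lay between Old and Young within every letter, and Old-LP overlapped with Young. On the C arrays the signal was higher than on A and B in all groups, by the least in Old.

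None of the 3 Old arrays had a *Cxcl9* spot well above background, whereas all 9 other arrays did. The spot intensity before normalization was 4.49 to 7.99 in Old DCs, 50.2 to 90.4 in Young-Abx DCs, 141 to 438 in Old-LP DCs and 238 to 392 in Young DCs. Because the Old level was not well above background, the difference is given as a nominal lower bound: Young was at least 13.1-fold higher than Old, and Old-LP at least 11-fold higher than Old. For these bounds the Old level on each array was the lowest signal among probes well above background. A spot that is not well above background can lie above that level, so it is a convention and not a detection limit. The measured means were 8.27 ± 0.93 for Young, 5.83 ± 1.47 for Young-Abx, 2.82 ± 0.28 for Old and 8.02 ± 0.98 for Old-LP (SD, n = 3). In the order Young, Old-LP, Young-Abx and Old, Young and Old-LP did not differ beyond their spread, and the Young-Abx C array reached just above the lowest Old-LP array.

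**Figure D1:**
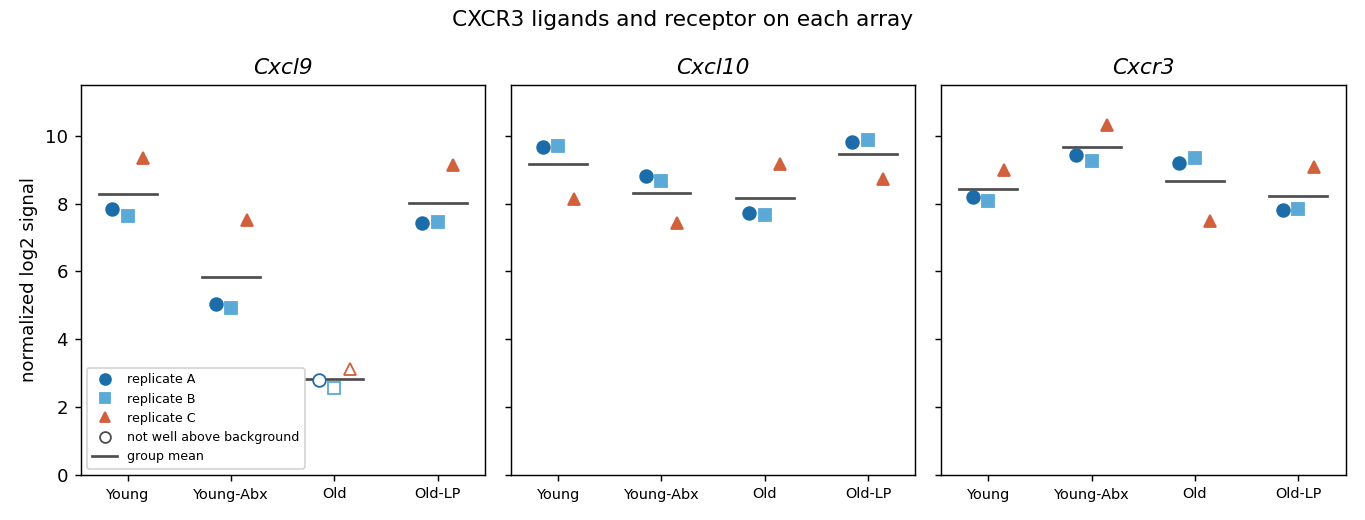
Normalized log2 signal (y axis) of *Cxcl9*, *Cxcl10* and *Cxcr3* on each of the 12 arrays, by group (x axis). Symbols give the replicate letter, open symbols are spots not well above background and lines are group means of 3 arrays. All 3 *Cxcl9* values of Old DCs are open symbols at 2.56 to 3.12, and the C array of Old lies on the other side of A and B for *Cxcl10* (9.16 against 7.73 and 7.65) and *Cxcr3* (7.50 against 9.20 and 9.34) than it does in the other groups.

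*Cxcl10* varied less between the groups. Its normalized log2 signal was 9.66, 9.71 and 8.13 on the Young A, B and C arrays and 8.81, 8.68 and 7.44 in Young-Abx DCs. It was 7.73, 7.65 and 9.16 in Old DCs and 9.81, 9.89 and 8.73 in Old-LP DCs. The C arrays were below A and B in Young, Young-Abx and Old-LP but above them in Old, so that Old was the lowest group on A and B and the highest on C. The means were 9.17 ± 0.90 for Young, 8.31 ± 0.76 for Young-Abx, 8.18 ± 0.85 for Old and 9.48 ± 0.65 for Old-LP (SD, n = 3). Neighbours in the order Old-LP, Young, Young-Abx and Old overlapped. All 12 spots were well above background. The spot intensity of *Cxcl10* was 99.9 on Young C and 104 on Old C, while it was 1350 and 1540 on Young A and B against 384 and 292 on Old A and B. The 75th percentile of all intensities was 175.9 on Young C and 87.75 on Old C. On C the intensities before normalization were thus nearly alike, and the difference appeared after the arrays were scaled to each other.

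*Cxcr3*, the receptor, ran the other way on part of the arrays. Its normalized log2 signal was 8.19, 8.09 and 8.99 on the Young A, B and C arrays and 9.42, 9.27 and 10.32 in Young-Abx DCs. It was 9.20, 9.34 and 7.50 in Old DCs and 7.80, 7.84 and 9.07 in Old-LP DCs. Young-Abx was above Young on every array, whereas Old was above Young on A and B and below it on C. The means were 9.67 ± 0.57 for Young-Abx, 8.68 ± 1.02 for Old, 8.42 ± 0.49 for Young and 8.24 ± 0.72 for Old-LP (SD, n = 3). Among the 4 comparisons below, only Young-Abx and Young did not overlap.

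The same arrays were compared as pairs of groups: age (Old against Young), antibiotics (Young-Abx against Young), *L. plantarum* in age (Old-LP against Old) and treated age against youth (Old-LP against Young). These comparisons share arrays, so their values are given side by side and are not independent. Differences are log2 fold changes from limma fitted to all 12 arrays, with the standard error (SE).

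In Old against Young, *Cxcl9* was by the same nominal bound at least 21.5-fold, 16.3-fold and 6.45-fold higher in Young within letters A, B and C. Its fitted difference of -5.45 (SE 0.752) takes the Old readings below background at face value and is not a measured size. *Cxcl10* differed by -0.99 (SE 0.602), with -1.93, -2.06 and 1.03 within the letters. *Cxcr3* differed by 0.25 (SE 0.558), with 1.01, 1.24 and -1.49. For *Cxcl9* all letters gave the same sign, and for *Cxcl10* and *Cxcr3* letter C gave the opposite one. On the A and B arrays alone *Cxcl10* differed by -2.00 and *Cxcr3* by 1.13.

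In Old-LP against Old the signs turned. By the nominal bound *Cxcl9* was at least 16.1-fold, 14.5-fold and 5.67-fold higher in Old-LP than in Old DCs within letters A, B and C. The fitted 5.20 (SE 0.752) rests on the same Old readings. *Cxcl10* differed by 1.30 (SE 0.602), with 2.08, 2.24 and -0.43. *Cxcr3* differed by -0.44 (SE 0.558), with -1.40, -1.50 and 1.57. Both comparisons use the Old C array, and it was again the C pair that went against A and B for *Cxcl10* and *Cxcr3*.

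In Young-Abx against Young, where all letters agree in sign for all 3 measured members, *Cxcl9* differed by -2.44 (SE 0.752), *Cxcl10* by -0.86 (SE 0.602) and *Cxcr3* by 1.25 (SE 0.558). Both ligands were thus lower and the receptor higher within each letter. In Old-LP against Young the differences were -0.26 for *Cxcl9* (SE 0.752), 0.31 for *Cxcl10* (SE 0.602) and -0.19 for *Cxcr3* (SE 0.558). Each of these was smaller than its SE.

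**Figure D2:**
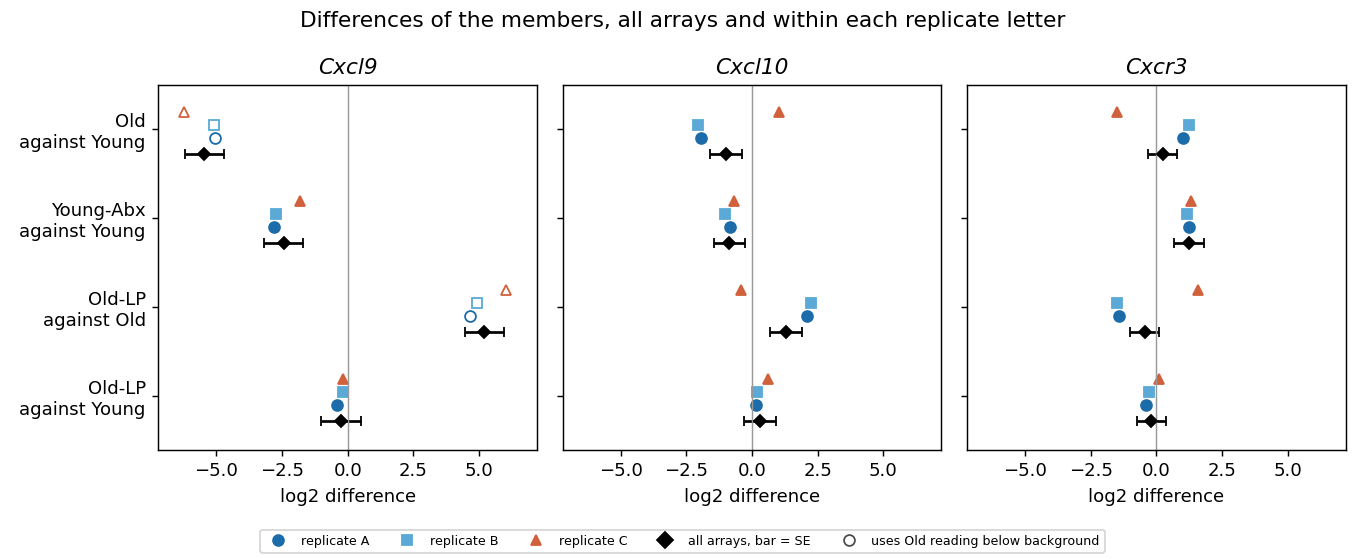
Log2 difference (x axis) of *Cxcl9*, *Cxcl10* and *Cxcr3* in 4 comparisons (y axis). Diamonds are the fit to all 12 arrays with the SE, and coloured symbols are differences within replicate letters A, B and C. Open symbols use *Cxcl9* readings of Old DCs below background, so their size, and that of the diamonds beside them, is not measured. The 3 letters lie on one side of 0 for *Cxcl9* and for Young-Abx against Young, and letter C lies across 0 from A and B for *Cxcl10* and *Cxcr3* in Old against Young (1.03 and -1.49) and in Old-LP against Old (-0.43 and 1.57).

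The arrays of the compared groups did not overlap for *Cxcl9* in Old against Young, Young-Abx against Young and Old-LP against Old, nor for *Cxcr3* in Young-Abx against Young. Over all probes they did not overlap for 9.65%, 9.86%, 9.38% and 4.72% in the order of the 4 comparisons above. These contrasts guided the choice of the genes, so nothing is read from the members' count. In the log2 table of the authors, which keeps the background in the signal, the Old values of *Cxcl9* were 6.00, 6.04 and 6.03. The fitted differences of *Cxcl9* there were -2.62 in Old against Young, -1.59 in Young-Abx against Young and 2.45 in Old-LP against Old. With normexp background correction and an offset of 50 they were -2.50, -1.53 and 2.34.

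The interferon and TLR4 pathways that feed the ligand genes were read from 3 lists of 59 genes, chosen with earlier results of these data known, of which 57 had a named probe. Each gene was read at its brightest probe. A probe was called where limma's Benjamini-Hochberg adjusted p over all 56605 probes was at most 0.05 and the absolute log2 fold change at least 0.5. In limma's fit 0 of 57 were called in Old against Young, Young-Abx against Young, Old-LP against Old and Old-LP against Young, beside 0.62%, 0.344%, 0.348% and 0% of all probes. At an unadjusted p under 0.05 the counts were 6, 1, 7 and 0 of 57, beside 6.05%, 3.9%, 5.87% and 1.13% of all probes. With the replicate block, 4 genes were called lower in Old against Young, and 3 were called higher in Old-LP against Old, while all probes called with it came to 2.18%, 0.984%, 1.65% and 0.00177% in the same order. These genes were chosen after their values were seen, and all belong to the interferon-induced list.

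Among the sources and sensors of interferon, no gene of the 16 in the interferon signalling list was called in the fit to all arrays without a block. *Ifng*, which encodes interferon-γ, had a normalized log2 signal of 8.59, 8.37 and 9.54 on the Young A, B and C arrays and 7.75, 7.76 and 8.91 in Young-Abx DCs. It was 7.19, 7.21 and 10.31 in Old DCs and 8.58, 8.60 and 9.60 in Old-LP DCs. As for *Cxcl10*, Old was lowest on A and B and highest on C, and the difference of Old against Young was -0.60 (SE 0.780), with -1.28 on the A and B arrays and 0.77 on C. It was called on the A and B arrays alone (limma adjusted p = 0.00143) and, at -1.27, with the replicate block without Old C (limma adjusted p = 0.00328). *Socs1*, a feedback inhibitor of JAK kinases, differed by -0.73 (SE 0.702) and *Socs3*, another such inhibitor, by 0.66 (SE 0.307). *Ifnar2*, a chain of the type I interferon receptor, differed by 0.59 (SE 0.219). With the slide as a block, *Ifnar2* was called in Young-Abx against Young (0.77, limma adjusted p = 0.0442) and *Stat2*, a transcription factor of type I interferon signalling, in Old-LP against Old (0.60, limma adjusted p = 0.0494). The median of the list in Old against Young was -0.06, against 0.01 for all probes.

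In the list from TLR4 to IRF3 and NF-κB, 0 of 13 genes were called without a block, and *Irf5*, a transcription factor gene, was called in Old-LP against Old with the slide as a block (0.67, limma adjusted p = 0.0369). The list's median was -0.03 in Old against Young. *Cd14*, the LPS co-receptor, differed by 0.69 (SE 0.525), *Nfkb1*, an NF-κB subunit, by -0.38, and *Ly96*, the TLR4 partner MD-2, by 0.27. These are the 3 largest differences among list members well above background on all arrays, and none was called.

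The 28 measured interferon-induced genes were lower in Old than in Young DCs for 24 and higher for 4, with a median of -0.38, while 49.4% of all probes were lower. In Old-LP against Old, 23 were higher and 5 lower with a median of 0.49. In Young-Abx against Young the median was -0.11, and in Old-LP against Young it was 0.04. The median of Old against Young was -0.38 both on the A and B arrays and on the C arrays, and no gene of the list was called without a block. *Mx1* and *Mx2* had no named probe.

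Genes of guanylate-binding proteins, interferon-γ-induced GTPases of host defence, differed by unequal amounts. *Gbp2* differed by -1.66 in Old against Young (SE 0.812), with signals of 11.71, 11.65 and 14.74 on Old A, B and C against 13.91, 14.01 and 15.15 in Young DCs. *Gbp5* differed by -1.33 (SE 0.716), with 8.86, 8.81 and 10.77 in Old DCs against 10.37, 10.29 and 11.77 in Young DCs. *Gbp3* differed by -1.26 (SE 0.679), with 10.79, 10.65 and 9.33 against 12.26, 12.14 and 10.16. Within every letter Old was below Young for these 3, although the groups overlapped across letters. *Gbp7* differed by -0.97 (SE 0.441) and *Gbp4* by -0.15 (SE 0.244), with 0.30 for *Gbp4* on the C arrays. *Ifit3*, an antiviral RNA-binding protein gene, differed by -1.07 (SE 0.266), its Old arrays at 8.24, 7.91 and 7.43 all lying below the Young arrays at 9.01, 8.98 and 8.79.

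The block took away the shift between letters, but not the difference in slide between the C arrays of Old and Young. In limma with the replicate block, *Gbp5* (adjusted p = 0.00657), *Gbp3* (adjusted p = 0.0175), *Cmpk2*, a mitochondrial nucleotide kinase gene (difference -1.05, adjusted p = 0.0178), and *Ifit3* (adjusted p = 0.0446) fell in Old against Young. In Old-LP against Old, *Gbp5* rose by 1.27 (adjusted p = 0.0109), *Cmpk2* by 1.18 (adjusted p = 0.0144) and *Gbp3* by 1.38 (adjusted p = 0.0158). *Ifit3* differed by 0.95 there (adjusted p = 0.0817). On the A and B arrays alone, 13, 9 and 9 of the 57 pathway genes were called in Old against Young, Young-Abx against Young and Old-LP against Old, beside 9.17%, 6.14% and 8.24% of all probes. The spread between A and B behind these counts may be technical.

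**Figure D3:**
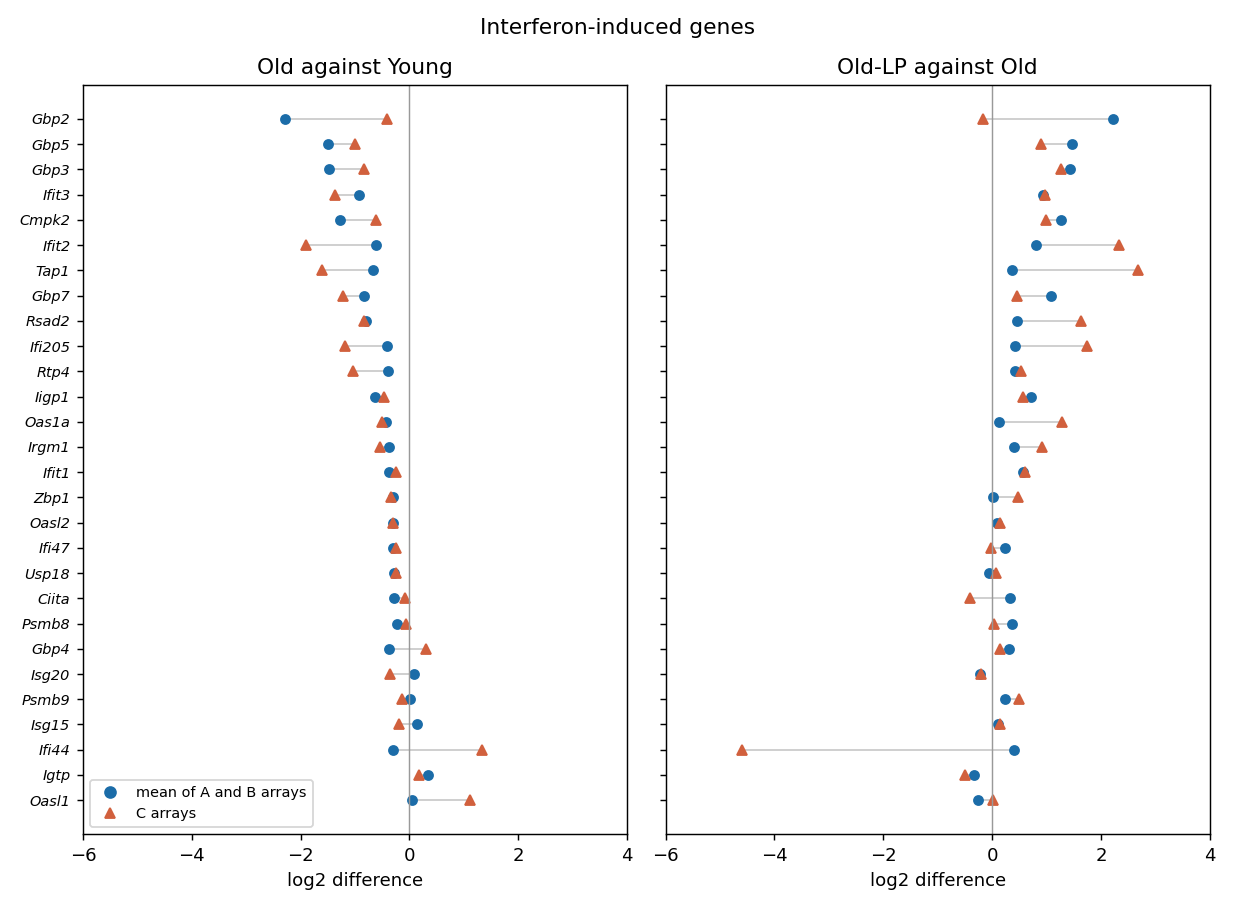
Log2 difference (x axis) of the 28 measured interferon-induced genes (y axis, ordered by the difference of Old against Young) in Old against Young and in Old-LP against Old. Circles are means of the A and B arrays and triangles are the C arrays. Most genes lie left of 0 in the first panel (median -0.38) and right of 0 in the second (median 0.49), and *Gbp2* is the gene with the widest gap to 0 on A and B (-2.28 and 2.22).

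Other chemokine genes moved in different directions. Of 17 measured CC chemokines, 2 were called in Old against Young, beside 0.62% of all probes. *Ccl1*, the ligand of CCR8, fell by 5.04 on the log2 scale (SE 0.357, limma adjusted p = 0.000345), from 10.94, 10.89 and 11.25 in Young DCs to 6.03, 5.66 and 6.26 in Old DCs. In Old-LP against Old it rose by 4.81 (limma adjusted p = 0.00159), and in Young-Abx against Young the difference was -0.75, with -1.01, -1.14 and -0.10 within letters A, B and C. *Ccl8*, a monocyte-attracting chemokine, rose by 1.93 in Old against Young (limma adjusted p = 0.00275) and by 1.87 in Young-Abx against Young (limma adjusted p = 0.00479), and fell by 1.81 in Old-LP against Old (limma adjusted p = 0.00822). *Ccl8* was higher than in Young DCs in both Old and Young-Abx DCs on every array. *Ccl19* had no named probe.

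Of the 14 other CXC, CX3C and XC chemokine genes, 0 were called by limma in any of the 4 comparisons. In Old against Young, Young-Abx against Young, Old-LP against Old and Old-LP against Young, 6, 5, 4 and 2 had an unadjusted p under 0.05. Of all probes, 6.05%, 3.9%, 5.87% and 1.13% did. The neutrophil-attracting genes *Cxcl5*, *Cxcl2*, *Ppbp* and *Cxcl3* differed by 2.17, 2.00, 1.49 and 1.28 in Old against Young, and *Cxcl1*, another of them, by 1.06, with -0.08 on the A and B arrays and 3.34 on C. *Xcl1*, a lymphocyte chemokine gene whose spot was not well above background on every array, differed by -2.13 (SE 1.01) and was lower in Old within each letter. *Cxcl13*, also not well above background on every array, had the largest rise of the list, by 2.85 in Old against Young. Its signals were 6.46, 6.41 and 1.73 in Old DCs against 1.97, 2.06 and 2.00 in Young DCs. In Young-Abx against Young *Cxcl13* differed by 4.05. With the replicate block, 4 of the 14 were called higher in Old: *Cxcl5* (adjusted p = 0.0430), *Ppbp* (adjusted p = 0.00729), *Cxcl3* (adjusted p = 0.0250) and *Cxcl16* (adjusted p = 0.0234), the ligand of CXCR6. Of all probes, 2.18% were called with this block in either direction. Of 22 genes for other chemokine receptors and a ligand-cleaving peptidase, 1 was called in Old against Young, beside 0.62% of all probes. This was *Ackr1*, an atypical receptor that binds inflammatory chemokines without G protein signalling. It rose by 3.64 in Old against Young (limma adjusted p = 0.0094) and by 3.38 in Young-Abx against Young (limma adjusted p = 0.0195). *Dpp4*, whose product trims CXCR3 ligands, differed by -1.13 in Old against Young (SE 0.658), which was called with the replicate block only (adjusted p = 0.0182).

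Other signals by which DCs act on T cells were read from 9 genes, of which 0 were called by limma in Old against Young. At an unadjusted p under 0.05 there were 2, beside 6.05% of all probes. *Cd86*, a co-stimulatory ligand, differed by -0.59, *Il12b*, a subunit of IL-12, by -0.52, and *Il15*, a growth factor of NK and memory T cells, by -0.49. Among these 3, *Cd86* was called with the replicate block. *Il12a*, the other IL-12 subunit gene, which was not well above background on every array, differed by 1.97 (SE 0.386). It was called with the replicate block (limma adjusted p = 0.0443) and its groups did not overlap.

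The cultures held transcripts of the cells that carry CXCR3. Of 10 DC markers, 8 were well above background on all 12 arrays, among them *Itgax*, *Cd74*, *H2-Ab1*, *Ccr7*, *Cd83* and *Fscn1*, and their summed normalized signal was 333000 to 447000. Of 10 T cell markers, 9 were well above background on all arrays, and their summed signal was 27700 to 45000 in Young, 23900 to 46500 in Young-Abx, 11700 to 17700 in Old and 25400 to 33100 in Old-LP DCs. Of 8 NK cell markers, 6 were well above background on all arrays, with sums of 25000 to 46000, 19900 to 47300, 13900 to 25500 and 22900 to 41500. The T cell sum of Old did not overlap with any other group and was lowest on Old C, the array on which *Cxcr3* was lowest too. On A and B, by contrast, *Cxcr3* was higher in Old than in Young DCs while the T and NK cell sums were lower. The sums are linear, so the brightest marker weighs most, which among the NK cell markers was *Gzma*. In such bulk RNA, fewer cells of a type and less RNA per cell cannot be told apart.

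No T or NK cell marker was called in Old against Young by limma without a block. At an unadjusted p under 0.05 there were 4 of 10 and 3 of 8, beside 6.05% of all probes. With the replicate block, *Gzma*, a granzyme gene of NK cells, was called (-0.94, adjusted p = 0.0187). With the slide as a block, *Gzma* (-0.89, adjusted p = 0.0204), *Cd3e* (-0.75, adjusted p = 0.0207) and *Thy1* (-0.85, adjusted p = 0.0106), a surface marker of T cells, were called. *Cd3d* and *Cd3e*, chains of the T cell receptor complex, differed by -1.69 and -1.10, *Cd8a* by -1.53 and *Nkg7*, a cytotoxic granule gene, by -1.15. Of the T cell markers 9 of 10 were lower in Old, and of the NK cell markers 6 of 8. The NK cell markers higher in Old were *Ncr1*, at low signal (mean 4.34 against 3.34 in Young DCs), and *Klrk1* (9.85 against 9.67). No marker of either list lacked an array on which it was well above background. The sum of the 6 plasmacytoid DC markers was 26900 to 36500 in Young, 30300 to 42400 in Young-Abx, 31600 to 32000 in Old and 26600 to 30000 in Old-LP DCs. It was higher in Young-Abx than in Young DCs within every letter, as was *Cxcr3*. Of the 6 markers, 4 were higher and 2 lower in Young-Abx against Young, with a median of 0.11. *Cox6a2* was lower within every letter, at 9.43, 9.45 and 10.43 against 10.26, 10.21 and 10.99 in Young DCs. The part of these cell types in the *Cxcl9*, *Cxcl10*, *Ifng* and *Cxcr3* values was not tested.

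The Old C array also stood apart in other lists. Its summed B cell marker signal was 17000, against 3140 and 3310 on Old A and B, and its summed signal of neutrophils and precursors was 54900, against 7700 and 7500. On the other 9 arrays these sums ran from 3720 to 7160 and from 11200 to 36000. *Cxcl10* and *Ifng* were higher on Old C than on Old A and B, as these sums were, and *Cxcr3* was lower. The part of these cells was not tested. In limma's fit 0 of 6 B cell, 0 of 6 plasmacytoid DC, 0 of 10 DC, 0 of 7 macrophage and monocyte and 0 of 6 mast cell and basophil markers were called in Old against Young. At an unadjusted p under 0.05 there was 1 in each of these lists. Of all probes, 0.62% were called and 6.05% had such a p. Of 8 markers of neutrophils and precursors, *Camp* was called (2.71) while 6 of the 8 were lower in Old, with a list median of -0.56 and of -1.54 on the A and B arrays, and of 6 megakaryocyte and erythroid markers, *Gp1bb* (2.83) and *Gp9* (2.36). Without Old C, and with the replicate block, the differences of Old against Young were -1.92 for *Cxcl10* and 1.19 for *Cxcr3*, and those of Old-LP against Old were 2.23 and -1.37.

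**Figure D4:**
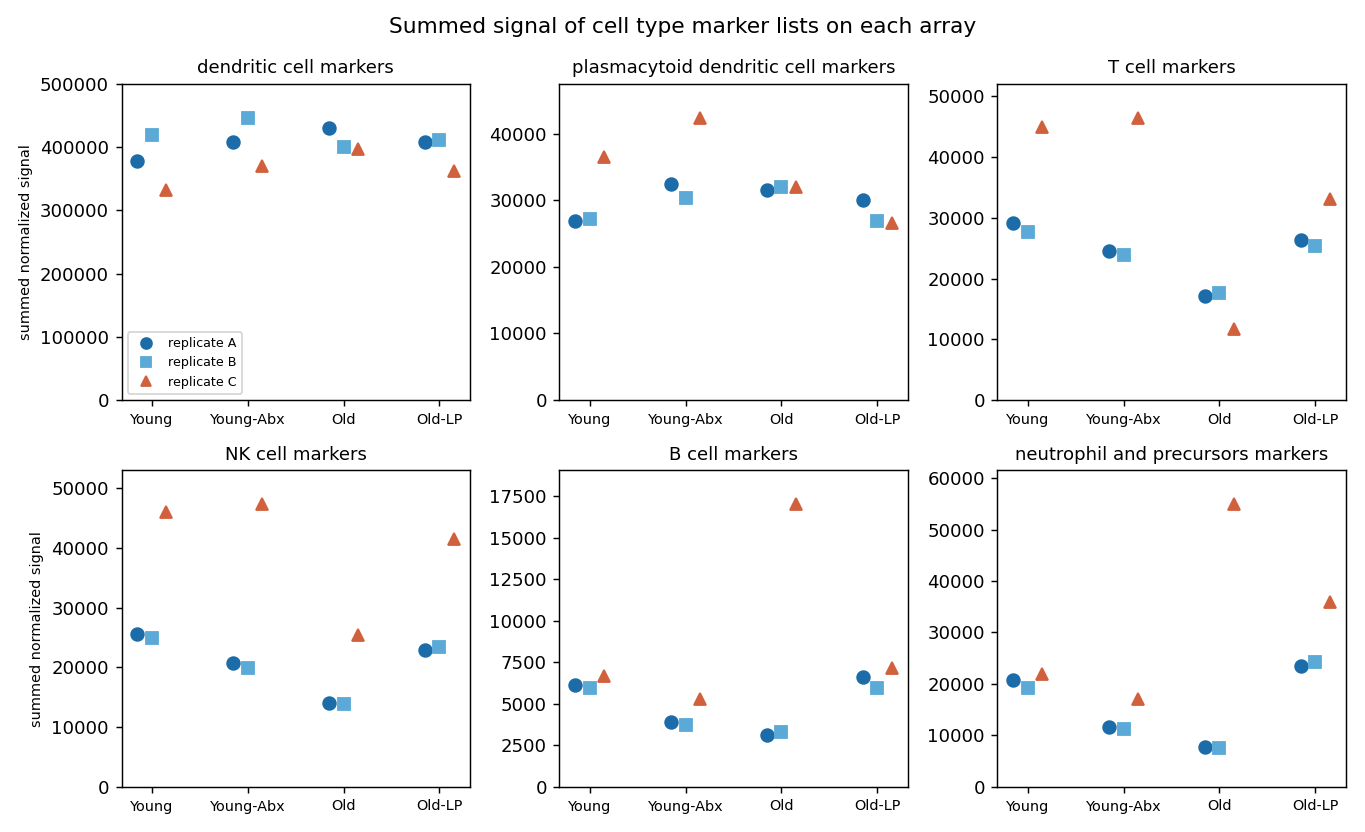
Summed normalized signal (y axis, linear scale) of 6 lists of cell type markers on each array, by group (x axis), with symbols for the replicate letter. The T cell sum is lowest in Old on every letter, and the Old C array has the highest sums of B cell markers (17000) and of neutrophils and precursors (54900).

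Likeness to the ligands was measured as Pearson's r over the 12 arrays after the mean of each letter was taken away, among 14597 genes well above background on at least 8 arrays. It is a description across arrays that share letters and slides. For *Cxcl9* it includes the Old readings below background. The genes nearest to *Cxcl9* were *Ccdc184* (r = 0.997), *Gm38832* (r = 0.996), *Cgn* (r = 0.995), *BC021767* (r = 0.994) and *Ccn3* (r = 0.993). *Cgn*, which encodes the tight junction protein cingulin, had group means of 6.60 in Young, 4.95 in Young-Abx, 2.82 in Old and 6.45 in Old-LP DCs, the same order of groups as *Cxcl9*. The nearest gene of the interferon pathway lists was *Stat2*, at rank 156 (r = 0.949), followed by *Gbp3* at rank 157 (r = 0.948).

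The genes nearest to *Cxcl10* were *Epx* (r = 0.991), an eosinophil peroxidase gene, *S100a9* (r = 0.988), a calcium-binding protein gene of neutrophils, *Cd59b* (r = 0.982), *Ccl4* (r = 0.978) and *Stfa2l1* (r = 0.978). *Ifng* came at rank 6 (r = 0.977). Between the members r was 0.506 for *Cxcl9* and *Cxcl10*, -0.142 for *Cxcl9* and *Cxcr3* and -0.845 for *Cxcl10* and *Cxcr3*. The ligands thus had different nearest genes, and the receptor ran opposite to *Cxcl10*.

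The genes next to the members in the order of the reference table were read in the same way. *Art3*, which lies between *Cxcl9* and *Cxcl10* in that order and overlaps *Cxcl10* and *Cxcl11*, had a spot well above background on 0 arrays. *Naaa*, *Sdad1* and *Nup54*, the other protein-coding neighbours of the ligand genes with a named probe, differed by -0.82, -0.21 and -0.12 in Old against Young and by 0.76, 0.42 and 0.47 in Old-LP against Old. None was called without a block or with the replicate block. With the slide as a block *Naaa* was called in both comparisons, and its arrays did not overlap in either. Of the 6 neighbours of *Cxcr3*, 1 had a named probe, *Gm4779*, which was well above background on no array.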

How the data were processed

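Per the labels, 12 arrays in 4 groups were hybridised with RNA of LPS-stimulated bone marrow-derived DCs. The authors deposited the intensity of each spot from Agilent Feature Extraction, background-subtracted and not normalized between arrays (the file headers name version 12.1.1.1 and the submitters' processing notes 10.5), and a table of log2 values for 46302 probes, which tracks the quantile-normalized median signal (lowest r over arrays 0.99999) without a stated choice of probes.

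Of 59305 non-control spots, 1068 readings marked as outliers were set to missing. Log2 intensity was quantile normalized, and spots were averaged to 56605 probes. The RefSeq table named 35405 of them. It is of another build than the mm9 of the array headers, so only the coordinates of the printed stretches are given, in GRCm38.p6. limma 3.58.1 (R 4.3.3) was fitted with lmFit and eBayes, the functions the methods name, to all 12 arrays with 1 mean per group, a choice made here, with two-sided p. The number of arrays limits the precision. Steps were checked on simulated data.

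The members and the 16 gene lists were chosen with earlier results of these data known. Named genes were all members, listed genes called in any comparison (for lists without a call, the 2 to 4 largest differences of Old against Young well above background on all arrays), the 5 genes most like each ligand, and 3 neighbours on each side of a member. Some other listed genes, such as *Xcl1*, *Cxcl13* and *Il12a*, are named outside this rule. Deviations from group means correlated at r = 0.484 to 0.581 within A, 0.415 to 0.621 within B and 0.569 to 0.711 within C. Between A and B they correlated at 0.449 to 0.570 and between C and A or B at -0.659 to -0.466. The values thus set C apart from A and B, and do not show a pairing of A apart from B. The letter and the slide were each tried as a block. The normexp correction used the median signal in place of the mean signal.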

Additional observations from a re-analysis of the deposited data

How the results depend on the processing

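The differences of *Cxcl9*, *Cxcl10* and *Cxcr3* were recomputed under 24 other settings in each of 4 comparisons. The direction of *Cxcl9* in Old against Young, Young-Abx against Young and Old-LP against Old held under all 24. As the arrays of these groups did not overlap for *Cxcl9*, leaving out arrays could not turn its direction, so this is no separate support. With normexp background correction *Cxcl9* differed by -2.50 in Old against Young, -1.53 in Young-Abx against Young and 2.34 in Old-LP against Old, and in the log2 table of the authors by -2.62, -1.59 and 2.45, as both keep an offset or background under low signals. On the slide of replicates A and B alone, *Cxcl10* differed by -2.00 and 2.16 and *Cxcr3* by 1.13 and -1.45 in Old against Young and Old-LP against Old. With the replicate block and without the third Old array, a setting chosen after seeing the data, they differed by -1.92 and 2.23 and by 1.19 and -1.37. When each array was left out in turn, *Cxcr3* ran from -0.08 to 0.84 in Old against Young and from -1.03 to -0.11 in Old-LP against Old, *Cxcl10* from -1.50 to -0.72 and from 1.03 to 1.79, and *Cxcl9* in Young-Abx against Young from -3.29 to -1.91. In Old-LP against Young, *Cxcl9* ran from -0.83 to 0.27, *Cxcl10* from -0.21 to 0.68 and *Cxcr3* from -0.61 to 0.09. Without Old C, Old against Young gave 0.84 for *Cxcr3*.

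The count of interferon pathway genes called, 0 in each comparison, was 4 in Old against Young and 3 in Old-LP against Old with the replicate block, which paired the arrays by letter. Of all probes, 2.18% and 1.65% were called with that block. On the slide of replicates A and B the count was 13 and 9, and 9 in Young-Abx against Young, beside 9.17%, 8.24% and 6.14% of all probes. With the slide as a block it was 4 and 7 in these comparisons and 2 in Young-Abx against Young. With the replicate block and without the third Old array it was 5 and 5, and 2 in Young-Abx against Young. For the slide block and this last setting the share of all probes called was not computed, so nothing is read from those counts. The pathway count stayed at 0 in all other fits, leaving out each array included. A shift by the 75th percentile moved the median of all probes to 0.15 in Old against Young, -0.14 in Young-Abx against Young and -0.13 in Old-LP against Old. The C arrays, with fewer spots above background, limit what low genes can show, and *Cxcl9* in Old DCs has only a nominal upper bound.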
